A study of Mus musculus with 9 samples.

Results

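The 7 genes described here, Nptx1, Lrrtm1, Cadm3, Dscaml1, Ildr2, Map2 and Pkd1l2, encode proteins of the synapse, of cell adhesion, of the cytoskeleton and of the polycystin family. They were selected on measured values, because their mRNA was higher in touch dome keratinocytes than in 2 other keratinocyte populations of mouse skin. They are 7 of 55357 gene identifiers in the deposited table and 7 of the 15046 genes that passed a filter on low counts, which all 7 passed. Since the Touchdome levels chose these genes, their differences from the other populations are given as a description, with no test. The rule names no threshold.

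Cells came from the back skin of mice on a C57BL/6 background with the genotype TNC-CREER; tdTomato, at postnatal day 60. The tamoxifen-dependent Cre recombinase is named for Tenascin-C (Tnc), and in all 3 groups the mice had received tamoxifen at 100 µg per g body weight on postnatal days 51 and 52. The reporter therefore reflects Cre activity in that period, and not a cell type as such. Touchdome cells were sorted as positive for EPCAM, SCA1, integrin α6 and TOMATO. IFE cells, from the interfollicular epidermis, had the same surface proteins but were TOMATO-negative, and HF cells, from the hair follicle, were positive for EPCAM and integrin α6 but negative for SCA1 and TOMATO. Each group had 3 libraries of poly(A) RNA. Whether the libraries of a group stem from different mice is not stated in the labels, and p-values then cover only the spread among the libraries, part of which may be technical.

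Synapses are built by secreted and membrane proteins that hold the sending and the receiving cell together and gather receptors between them. Many of these proteins belong to families with leucine-rich repeats or immunoglobulin domains, and members of the same families join epithelial cells to each other. Touch domes are patches of epidermis beside particular hair follicles where Merkel cells meet sensory nerve endings, and touch dome keratinocytes are the neighbours of those cells. Ildr2 and Pkd1l2 are grouped here with neuronal genes by the rule, although angulins are known from epithelial tricellular junctions and polycystins from cilia and ion channels.

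The start of each gene is shown first because the promoters are where the 7 genes can be compared on a property that the rule did not use. RefSeq windows on GRCm38.p6, with 250 bases before and 50 after the start, were at hand for 5 of the 7, namely Lrrtm1, Cadm3, Ildr2, Map2 and Pkd1l2. The windows were searched on both strands for the GC box GGGCGG, the TATA box TATAAA, the CCAAT box CCAAT and the GLI site TGGGTGGTC, and none of the matches found overlaps another. The 4 windows that hold a match follow, 5′ to 3′ along the gene, with matches in capitals. A match on the opposite strand appears as its reverse complement.
Ildr2: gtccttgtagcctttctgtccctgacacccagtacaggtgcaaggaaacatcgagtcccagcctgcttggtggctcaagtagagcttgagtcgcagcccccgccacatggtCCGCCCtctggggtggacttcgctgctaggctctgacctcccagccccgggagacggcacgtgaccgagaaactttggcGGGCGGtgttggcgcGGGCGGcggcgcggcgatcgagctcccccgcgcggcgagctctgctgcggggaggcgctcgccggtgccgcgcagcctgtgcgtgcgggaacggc
Map2: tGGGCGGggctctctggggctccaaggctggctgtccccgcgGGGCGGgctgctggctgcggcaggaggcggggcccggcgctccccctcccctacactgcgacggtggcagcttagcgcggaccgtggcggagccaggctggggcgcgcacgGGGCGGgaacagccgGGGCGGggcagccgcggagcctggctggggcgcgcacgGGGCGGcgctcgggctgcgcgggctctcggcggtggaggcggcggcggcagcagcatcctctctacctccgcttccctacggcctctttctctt
Lrrtm1: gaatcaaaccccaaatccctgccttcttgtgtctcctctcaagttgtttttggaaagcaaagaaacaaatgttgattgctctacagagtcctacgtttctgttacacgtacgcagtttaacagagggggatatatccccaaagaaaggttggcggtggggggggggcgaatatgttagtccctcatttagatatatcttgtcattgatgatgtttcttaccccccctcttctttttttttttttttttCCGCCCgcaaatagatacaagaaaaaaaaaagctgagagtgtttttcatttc
Pkd1l2: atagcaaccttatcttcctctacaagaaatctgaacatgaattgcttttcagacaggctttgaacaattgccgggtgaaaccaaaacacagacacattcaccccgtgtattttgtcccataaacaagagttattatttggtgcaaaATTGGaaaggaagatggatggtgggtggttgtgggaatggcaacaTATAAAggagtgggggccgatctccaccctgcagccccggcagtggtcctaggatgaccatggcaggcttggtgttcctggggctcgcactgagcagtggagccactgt

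Ildr2 (chr1:166253889-166254188, plus strand) and Map2 (chr1:66175079-66175378, plus strand) had starts rich in CG pairs, with 32 and 37 in 300 bases. The median of all 32851 windows was 7 CG pairs, and 31 marked the 90th percentile. The GC box stood 3 times in the Ildr2 window, beginning 139, 60 and 45 bases before the start, and 5 times in the Map2 window, beginning 249, 208, 97, 82 and 44 bases before it. Of all windows, 35.7% held this box. Lrrtm1 (chr6:77242227-77242526, plus strand) had 7 CG pairs and 1 GC box, on the opposite strand, beginning 2 bases before the start. Pkd1l2 (chr8:117082400-117082699, minus strand) had 5 CG pairs, a TATA box 59 bases before the start and a CCAAT box on the opposite strand 104 bases before it. The TATA box was in 13.6% and the CCAAT box in 37.4% of all windows. Cadm3 (chr1:173367646-173367945, minus strand) had 17 CG pairs and none of the 4 motifs. The GLI site was in 0.253% of all windows and in none of these 5. The 5 starts thus ranged from near the median to above the 90th percentile in CG pairs, and no motif was common to all of them.

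Nptx1 (ENSMUSG00000025582) encodes neuronal pentraxin 1, a secreted protein that gathers AMPA-type glutamate receptors at synapses. Its level in the 3 Touchdome libraries was 97.8, 149 and 75.7 CPM (counts scaled to a common library size, in the order of the replicate numbers). The IFE libraries had 12.4, 9.36 and 11.4 and the HF libraries 38.9, 21.7 and 23.3. All Touchdome libraries lay above all others, and HF lay above IFE without overlap. Touchdome averaged 107 ± 37.3 CPM, IFE 11.1 ± 1.54 CPM and HF 27.95 ± 9.50 CPM (SD, n = 3). On the log2 scale of the fitted model, Touchdome exceeded IFE by 3.27 ± 0.30 and HF by 1.93 ± 0.28 (SE). Nptx1 was the gene of the 7 with the most reads behind it, 4104 counts over the 3 Touchdome libraries.

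Lrrtm1 (ENSMUSG00000060780) encodes a leucine-rich repeat protein of the postsynaptic membrane that binds neurexins. It was at 2.37, 3.84 and 0.913 CPM in Touchdome, at 0 in every IFE library and at 0.0914, 0 and 0.131 CPM in HF. The reads were few, 91 counts in Touchdome against 0 in IFE and 4 in HF. A count of 0 allows up to 0.114 to 0.316 CPM in a single library and 0.0503 CPM over the 3 IFE libraries, at 3 counts. After scaling for library size, the summed Touchdome counts were at least 46.5-fold higher than IFE against that limit and 27.3-fold those of HF, with an exact 95% counting interval of 10.3 to 102. Touchdome replicate 3 was the lowest of its group, and the 3 values spread over a 4.21-fold range, the widest among the 7 genes.

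**Figure D1:**
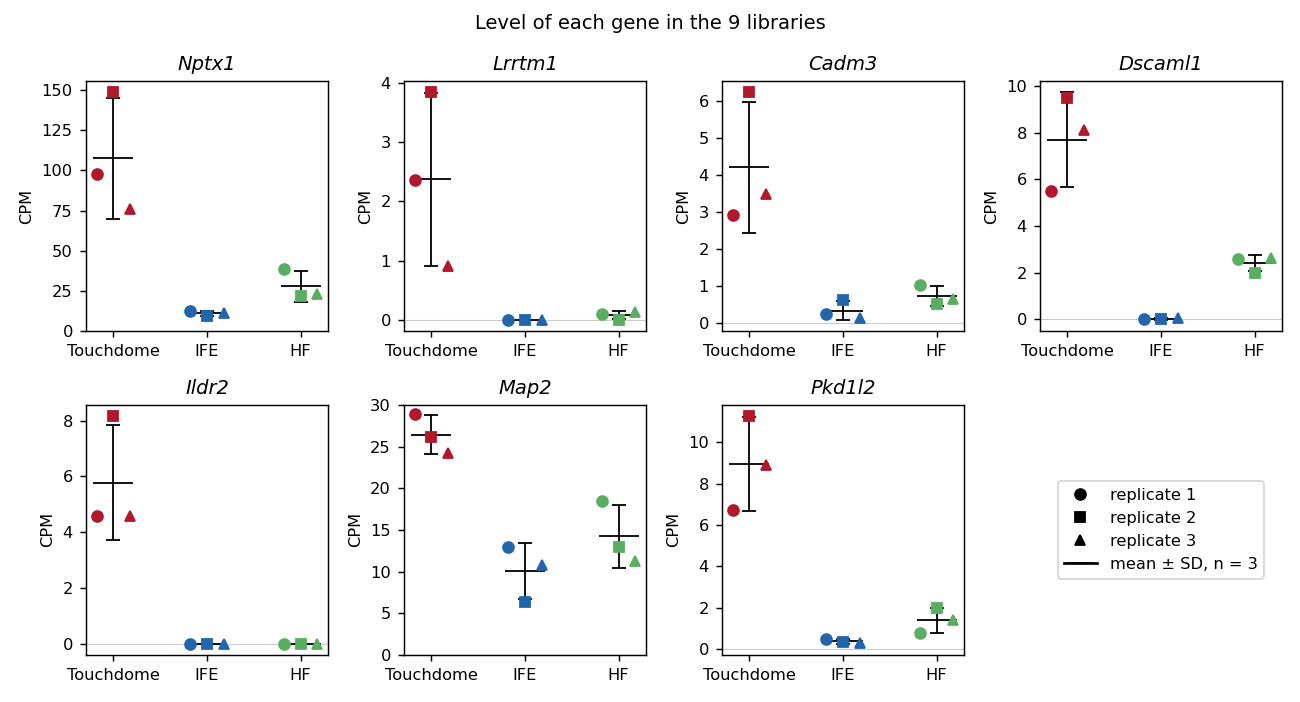
Level of each of the 7 genes in CPM (vertical axes, a scale of its own for each gene) in the 3 libraries of Touchdome, IFE and HF, with the mean and SD of each group as bars. For every gene the 3 Touchdome points lie above the other 6, and for Ildr2 all 6 other points are at 0.

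Cadm3 (ENSMUSG00000005338) encodes an immunoglobulin-domain adhesion molecule of the SynCAM family, which is known from nervous tissue. Touchdome libraries measured 2.94, 6.24 and 3.49 CPM, IFE libraries 0.263, 0.633 and 0.151 CPM, and HF libraries 1.05, 0.527 and 0.655 CPM. The Touchdome libraries stood above the rest, while IFE and HF overlapped. Group means were 4.22 ± 1.77, 0.349 ± 0.252 and 0.744 ± 0.273 CPM in that order, and the log2 differences of Touchdome were 3.64 ± 0.67 from IFE and 2.46 ± 0.62 from HF.

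Dscaml1 (ENSMUSG00000032087) encodes a homophilic immunoglobulin-domain adhesion protein related to the Down syndrome cell adhesion molecule, known for the spacing of neurons in the retina. Touchdome libraries held 5.50, 9.48 and 8.14 CPM, IFE libraries 0, 0 and 0.0757 CPM, and HF libraries 2.61, 2.00 and 2.62 CPM. The 3 groups did not overlap, and HF took a middle place with little spread, at 2.41 ± 0.353 CPM. Behind these levels were 290 counts in Touchdome, 116 in HF and 2 in IFE. Scaled for library size, the count ratio of Touchdome was 222 over IFE, with a counting interval of 61.03 to 1846, and 2.999 over HF, with an interval of 2.41 to 3.75.

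Ildr2 (ENSMUSG00000040612) encodes an angulin, a membrane protein of the corners where 3 epithelial cells meet. Its Touchdome levels were 4.60, 8.17 and 4.57 CPM, and it was at 0 in all 3 IFE and all 3 HF libraries. With 218 counts in Touchdome, this was at least 111-fold higher than IFE and at least 87.2-fold higher than HF, against 3 counts over each group. It was the only gene of the 7 at 0 in all 6 libraries of the other 2 groups.

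Map2 (ENSMUSG00000015222) encodes a microtubule-associated protein of dendrites. Its CPM values were 28.9, 26.1 and 24.2 for Touchdome, 12.9, 6.33 and 10.8 for IFE and 18.5, 13.0 and 11.3 for HF. Touchdome again lay above both, with means of 26.4 ± 2.34, 10.03 ± 3.38 and 14.2 ± 3.79 CPM, but here the other groups held clear levels too. The log2 differences were the smallest of the 7 genes, 1.39 ± 0.25 from IFE and 0.88 ± 0.25 from HF.

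Pkd1l2 (ENSMUSG00000034416) encodes a large membrane protein related to polycystin-1. Reads put it at 6.71, 11.3 and 8.88 CPM for Touchdome, 0.473, 0.352 and 0.265 CPM for IFE and 0.777, 2.00 and 1.376 CPM for HF. No library of one group reached the range of another. The means were 8.95 ± 2.28, 0.363 ± 0.105 and 1.39 ± 0.613 CPM, and Touchdome exceeded IFE by 4.61 ± 0.48 and HF by 2.73 ± 0.43 on the log2 scale.

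In CPM the 3 Touchdome libraries lay above the other 6 for 7 of 7 genes, which the choice of genes fixes, and 1.60% of all genes tested showed that pattern. The order of the means was Touchdome, HF, IFE for 6 of the 7, and Ildr2 had no order below Touchdome. In bulk samples, fewer cells that express a gene and less RNA of it per cell cannot be told apart.

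Levels of different genes can be set side by side only per length, which the deposited TPM values allow. In Touchdome the order by mean TPM was Nptx1 at 34.8 ± 12.4, Map2 at 13.9 ± 1.94, Dscaml1 at 4.39 ± 2.32, Pkd1l2 at 3.43 ± 1.62, Cadm3 at 1.86 ± 0.820, Lrrtm1 at 1.78 ± 0.899 and Ildr2 at 1.26 ± 0.348 (SD, n = 3). Nptx1, Map2 and Dscaml1 followed each other without overlap of their Touchdome libraries. From Dscaml1 down, each neighbour in the order overlapped the next. The 3 Dscaml1 values still lay wholly above Cadm3, Lrrtm1 and Ildr2, and Pkd1l2, at 2.30 to 5.29 TPM, wholly above Ildr2, at 1.01 to 1.66 TPM.

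**Figure D2:**
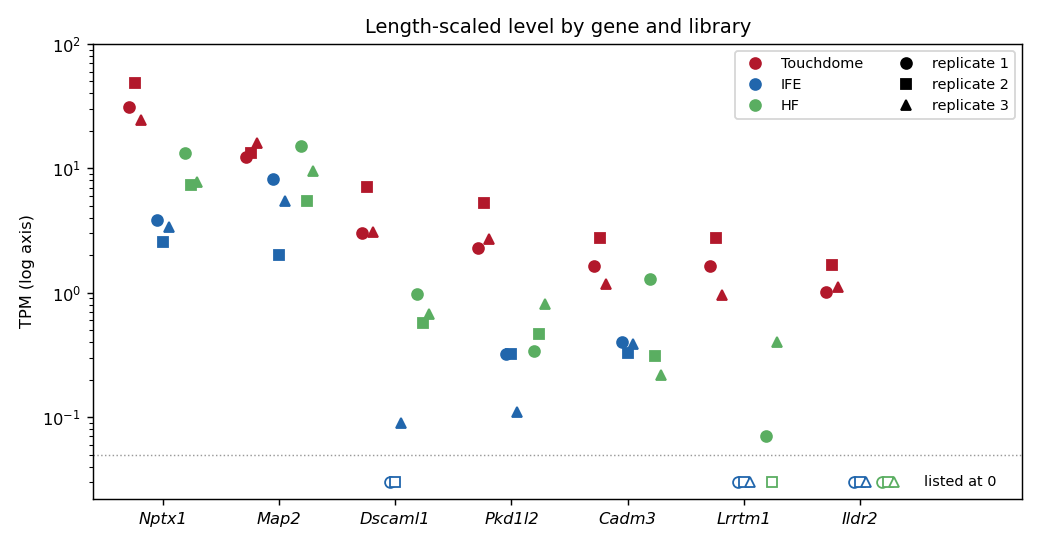
Length-scaled level of the 7 genes in TPM (vertical log axis), ordered by their Touchdome mean, with 1 point for each library and open points for libraries listed at 0. Nptx1 and Map2 stand above the other 5 genes, and for Map2 and Cadm3 HF replicate 1 reaches into the Touchdome range.

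On the TPM scale the Touchdome libraries lay above the other 6 for 5 of 7 genes. The exceptions were Map2 and Cadm3, and in both HF replicate 1 was the library that overlapped. Map2 TPM was 12.4, 13.2 and 16.1 in Touchdome, 8.26, 2.00 and 5.47 in IFE and 15.2, 5.51 and 9.55 in HF. HF replicate 1 thus exceeded 2 of the 3 Touchdome libraries. For Cadm3 the same library held 1.29 TPM, above the 1.18 TPM of Touchdome replicate 3.

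The gap between the scales can be read from the counts that a library gives per TPM unit, which moves with the effective length that was assigned to a gene. For Nptx1, a gene with 1 annotated transcript of 5217 bases, this ratio was 48.0 to 48.4 over the 9 libraries, a 1.01-fold range. For Map2, with 24 annotated transcripts of 304 to 6258 bases, it was 35.4, 31.3 and 23.7 in Touchdome, 23.6, 41.6 and 27.98 in IFE and 20.2, 38.7 and 19.1 in HF. These Map2 values spanned 2.18-fold and did not follow the groups. Among 8698 genes with at least 100 counts and 1 TPM in all 9 libraries, the median range was 1.22-fold and 2.77% had a wider range than Map2. Which Map2 transcripts the counts came from was not tested.

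**Figure D3:**
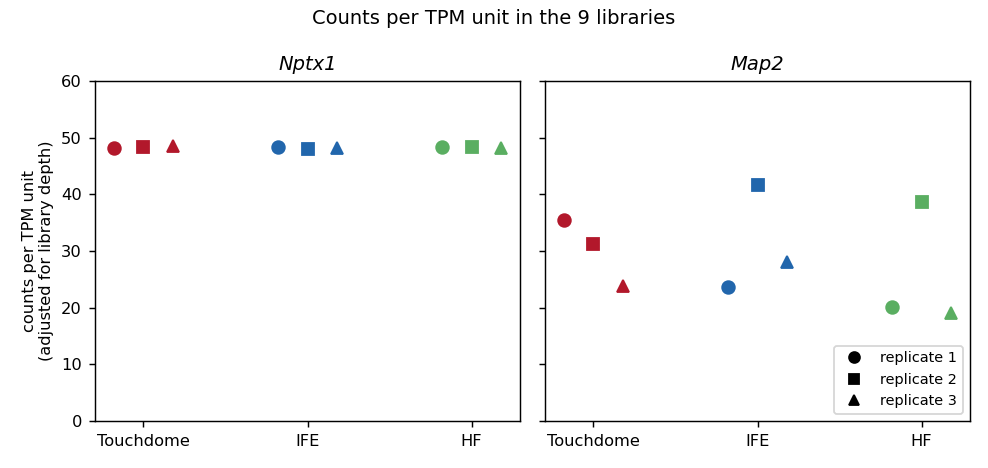
Counts per TPM unit, adjusted for library depth (vertical axis, from 0), for Nptx1 and Map2 in each library of the 3 groups. Nptx1 stays at 48.0 to 48.4, while Map2 runs from 19.1 to 41.6 with the groups intermixed.

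The other ratios were available only where a library had at least 20 counts and 0.5 TPM. In Touchdome they were 27.5, 35.6 and 46.6 for Cadm3, and HF replicate 1, the library that overlapped in TPM, was at 13.5. Dscaml1 had 27.98, 21.2 and 41.4 in Touchdome, against 44.0 and 62.4 in HF replicates 1 and 3. For Ildr2 the ratio ran from 64.3 to 77.7 and for Pkd1l2 from 33.6 to 51.7 over the Touchdome libraries. The Touchdome excess of Dscaml1 over HF was accordingly greater in mean TPM (5.91-fold) than in mean CPM (3.20-fold), and that of Cadm3 was smaller (3.07-fold against 5.67-fold).

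How the 7 genes differed between HF and IFE was not part of the rule, although the rule asked that both be below Touchdome. In the edgeR quasi-likelihood test with Benjamini-Hochberg adjustment over all genes, 3 of 7 were higher in HF, where 17.1% of all genes tested were called higher, and 0 of 7 were lower, where 16.0% were called lower. No gene was lower at an unadjusted p under 0.05 either, and DESeq2 and limma called 0 lower. With at most 4 counts in HF and IFE for Lrrtm1 and Ildr2, and 2 counts in IFE for Dscaml1, those 3 genes could hardly be called lower in HF, so the 0 is not set against the 16.0%. The same 3 genes had HF above IFE without overlap in CPM, a pattern that 24.6% of all genes tested showed.

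Nptx1 was higher in HF by 1.34 ± 0.29 on the log2 scale (adjusted p = 0.00489, edgeR) and stayed past the threshold in all 17 alternative settings, with adjusted p from 7.57e-06 to 0.0347. Dscaml1 was higher by 5.92 ± 0.67 (adjusted p = 2.48e-05, edgeR), a ratio of 74.2 in counts scaled for library size, with a counting interval of 20.1 to 620, since IFE had 2 counts. That call was lost with limma on log2(TPM + 1), at adjusted p = 0.0712, the highest of 17 alternatives. Pkd1l2 was higher by 1.88 ± 0.48 (adjusted p = 0.00913, edgeR) and lost its call in 3 of 17 alternatives, both limma fits on TPM and the fit of these groups alone, with adjusted p from 0.00218 to 0.456.

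Of the genes that did not pass, Cadm3 had an HF minus IFE difference of 1.18 ± 0.66 (adjusted p = 0.196, edgeR) and Map2 one of 0.50 ± 0.25 (adjusted p = 0.148, edgeR). Lrrtm1, with 4 counts in HF and 0 in IFE, had an adjusted p of 0.123 in edgeR. Ildr2, at 0 in both groups, gives no difference. At these depths a difference of Lrrtm1 or Ildr2 between HF and IFE was not detectable. Reads were above 0 in all 3 HF libraries for 5 of the 7 genes and in all 3 IFE libraries for 4 of them.

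Within Touchdome the libraries did not rank alike. Replicate 2 was the highest in CPM for 6 of 7 genes, all but Map2, where 33.6% of all genes tested had it highest. Replicate 3 was the lowest for 4 of 7, namely Nptx1, Lrrtm1, Ildr2 and Map2, against 32.1% of all genes. The greatest over the least Touchdome level was 1.96 for Nptx1, 2.12 for Cadm3 and 1.72 for Dscaml1. Tnc, whose name the Cre carries, did not have the order of Nptx1: it was at 200, 282 and 288 CPM in Touchdome replicates 1 to 3.

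Touchdome replicate 3 stood apart from the other 2 libraries of its group on the first principal component of all genes, at -2.86 against -37.6 and -40.7. IFE lay between -75.4 and -57.5 and HF between 89.2 and 98.7 on that axis, which held 59.2% of the variance. Without that library the mean ratio over IFE went from 9.72 to 11.1 for Nptx1, from 12.1 to 13.1 for Cadm3, from 2.63 to 2.74 for Map2 and from 24.6 to 24.7 for Pkd1l2. Over HF it went from 3.84 to 4.41 for Nptx1, from 3.20 to 3.11 for Dscaml1 and from 32.0 to 41.9 for Lrrtm1. Of these ratios, only that of Dscaml1 fell slightly. Ildr2 has no ratio over either group and Lrrtm1 none over IFE, since the other group was at 0. The genes were chosen for their Touchdome levels, so an excess that remains without this library is no support.

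The relatives that share a symbol stem with the 7 genes had patterns of several kinds. Nptx2, the other secreted neuronal pentraxin, was at 0.192, 0.179 and 0.498 CPM in Touchdome, 1.53, 0 and 0.568 in IFE and 0.366, 0 and 0.721 in HF. Nptxr, the membrane-bound pentraxin, was at 5.36 ± 3.17 CPM in Touchdome, 8.27 ± 1.69 in IFE and 12.4 ± 0.631 in HF. Its Touchdome values of 7.35, 1.70 and 7.03 CPM put replicate 2 lowest, where Nptx1 was highest.

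Lrrtm2 had means of 0.844, 0.768 and 0.396 CPM in Touchdome, IFE and HF. Lrrtm3 was at 0 in all 9 libraries, and Lrrtm4 was at 0 in Touchdome and IFE with a mean of 0.420 CPM in HF. Cadm1, the SynCAM of epithelia, was at 71.1 ± 3.10 CPM in Touchdome, 59.3 ± 6.13 in IFE and 144 ± 16.5 in HF. Cadm2 was at 1.21, 1.25 and 0.581 CPM in Touchdome, with single libraries above 0 in IFE, at 0.0757 CPM, and in HF, at 0.197 CPM. As for Cadm3, its 3 Touchdome libraries thus lay above the other 6 in CPM but not in TPM. Cadm2 did not pass the filter on low counts. Cadm4 had means of 0.170, 0.236 and 1.05 CPM.

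Dscam, the founding relative of Dscaml1, was at 0 in 8 libraries and at 0.0639 CPM in Touchdome replicate 1. Ildr1, the angulin closest in name to Ildr2, was at 2.88, 6.17 and 8.22 CPM in Touchdome, 3.92 ± 0.347 in IFE and 16.1 ± 2.02 in HF. Pkd1l1 was at 0 everywhere and Pkd1l3 had means of 0.192, 0.102 and 0.0921 CPM.

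A wider view comes from 98 other genes in the 7 families of these proteins, of which 53 passed the filter on low counts. Between Touchdome and IFE, 3 of the 53 rose in Touchdome, where 1.22% of all genes tested were called higher, and 0 fell, where 0.0798% were called lower. One gene was lower at an unadjusted p under 0.05, and DESeq2 and limma called 0 lower. The median log2 difference was 0.23, beside 0.00 over all genes tested. With the replicate number as a block, 5 rose.

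The 3 genes that rose were Lrrc4, Sdk1 and Kirrel1. Lrrc4, a leucine-rich repeat ligand of netrin-G at synapses, was at 10.6, 5.54 and 15.4 CPM in Touchdome against 3.63, 1.48 and 3.56 in IFE, a log2 rise of 1.84 ± 0.39 (adjusted p = 0.0364, edgeR). It lost its call in 10 of 17 alternatives, where adjusted p ran from 0.000265 to 0.142, among them leaving out Touchdome replicate 1 or 3, or any single IFE or HF library. Sdk1, a homophilic immunoglobulin protein of retinal synapses, was at 6.90, 7.24 and 7.31 CPM against 2.00, 2.46 and 2.50, a rise of 1.62 ± 0.22 (adjusted p = 0.00322, edgeR). Both limma fits on TPM ended that call, with an adjusted p of up to 0.742 over the 17 alternatives.

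Kirrel1, an immunoglobulin adhesion protein best known from the kidney filter, was at 7.42, 6.08 and 19.3 CPM in Touchdome against 0.947, 1.76 and 1.86 in IFE, a rise of 2.83 ± 0.47 (adjusted p = 0.0229, edgeR). The call ended in 5 of 17 alternatives, including the omission of any of the 3 IFE libraries, and adjusted p ran up to 0.137. The block added Nrcam (adjusted p = 0.000562, edgeR) and Alcam (adjusted p = 0.0247, edgeR), both neural immunoglobulin adhesion proteins. For Kirrel1, Nrcam and Alcam, Touchdome replicate 3 was the highest of its group, with 13.0 CPM of Nrcam against 2.75 and 2.77, and 109 CPM of Alcam against 52.2 and 47.8. HF was far higher in each, with 68.0 to 83.9 CPM of Kirrel1, 31.6 to 77.9 of Nrcam and 307 to 338 of Alcam.

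Between Touchdome and HF, 6 of the 53 family genes were higher in Touchdome, where 11.8% of all genes tested were called higher, and 25 were lower, where 12.8% were called lower. The median log2 difference was -0.82, beside 0.00 over all genes tested. Between HF and IFE, 27 rose and 7 fell in HF, beside the 17.1% and 16.0% of all genes given above, with a median of 1.17 beside 0.00. These comparisons share libraries. Setting genes with a group at 0 to their bound left all 3 medians as they were.

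**Figure D4:**
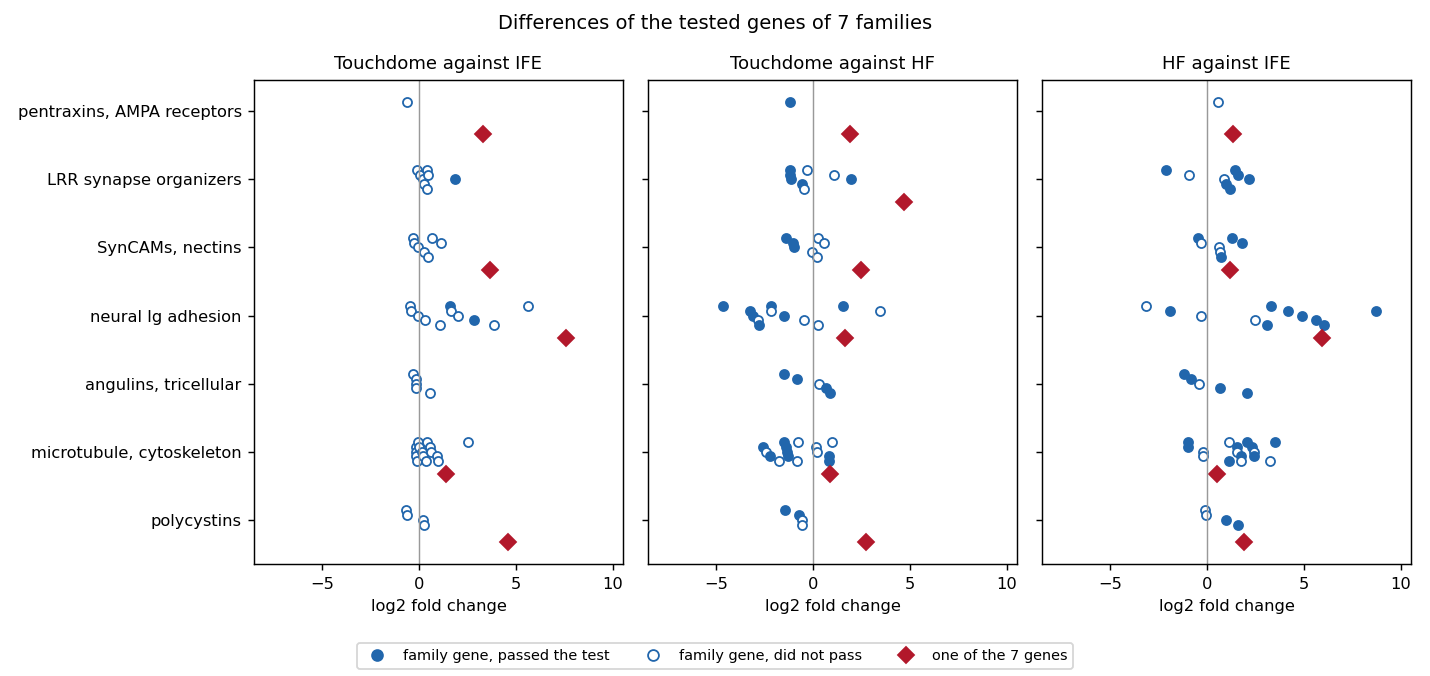
Log2 fold changes (horizontal axes) of the tested genes of 7 families in the 3 comparisons, with filled circles for family genes past an adjusted p of 0.05, open circles for those that were not, and diamonds for the 7 genes. Genes with a group at 0 are left out, among them Ildr2 in all 3 panels and Lrrtm1 in 2, and in the middle panel most filled circles lie left of 0 while the diamonds, chosen for it, lie right.

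By family, most calls against HF were on the lower side. Of 12 tested neural immunoglobulin adhesion genes, 1 was higher in Touchdome than in HF and 6 were lower. Chl1, an adhesion protein of the L1 family, was higher by 1.52 (adjusted p = 1.71e-05, edgeR), while Sdk1 had a log2 difference of -1.497 and Alcam one of -2.19. Of 8 tested leucine-rich repeat organizers and partners, 1 was higher and 4 were lower: Slitrk6, a regulator of neurite growth in the inner ear, exceeded HF by 1.98 (adjusted p = 6.65e-05, edgeR), and Nlgn2, a neurexin partner, had a difference of -1.20 and Flrt2 one of -1.12.

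Of 7 tested SynCAM and nectin genes, 3 were lower in Touchdome than in HF and 0 were higher. Afdn, the cytoplasmic anchor of nectins, had a log2 difference of -1.379 from HF, Cadm1 one of -1.02 and Pvr one of -0.99. Pvr lost its call in 4 of 17 alternatives, including those without Touchdome replicate 2 and without HF replicate 1. Of 5 tested angulin and tricellular junction genes, 2 were higher, Marveld3 (0.87) and Lsr (0.67), and 2 were lower, Ildr1 (-1.49) the further of them. Lsr, the main angulin of many epithelia, did not pass against IFE, at -0.14 ± 0.12 (adjusted p = 0.804, edgeR).

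Of 16 tested microtubule and neuronal cytoskeleton genes, 2 were higher in Touchdome than in HF and 7 were lower. Map6, a microtubule stabilizer, had a difference of -2.23, Map1s one of -1.48 and the tubulin Tubb2a one of -1.28. None of the 16 passed against IFE, and Stmn1, the most abundant of them in TPM, was at -0.18 ± 0.13 (adjusted p = 0.736, edgeR). Of 4 tested polycystin genes, Pkd1 (-1.44) and Pkd2 (-0.70) were lower than in HF and none passed against IFE. Nptxr, the only tested pentraxin or AMPA receptor gene besides Nptx1, had a log2 difference of -1.19 from HF (adjusted p = 0.0495, edgeR), a call that ended in 9 of 17 alternatives, including the omission of any 1 IFE or HF library.

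Against IFE, the same families were mostly higher in HF, the direction in which Nptx1, Dscaml1 and Pkd1l2 passed. Of the neural immunoglobulin genes 8 rose and 1 fell in HF, with Kirrel1 at 5.61, Sdk1 at 3.12 and Chl1 at -1.91 on the log2 scale. Of the leucine-rich repeat organizers 5 rose and 1 fell, with Nlgn2 at 1.60, Flrt2 at 1.17 and Slitrk6 at -2.09. Of the SynCAM and nectin genes 3 rose and 1 fell, with Afdn at 1.83, Cadm1 at 1.28 and Nectin4 at 0.73, whose call ended without HF replicate 2. Among angulin and tricellular genes 2 rose, Ildr1 at 2.04 being the greater, and Marveld3 (-1.20) and Lsr (-0.81) fell. The microtubule genes had 7 that rose and 2 that fell, with Map6 at 2.42, Map1s at 2.08 and Dpysl5 at 1.76. Pkd1 (1.62) and Pkd2 (0.97) rose and no polycystin gene fell, while Nptxr was at 0.58 (adjusted p = 0.285, edgeR).

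Some genes overlap the 7 in the GENCODE vM21 annotation, and the strand setting of the counts is not given in the sources used here, so reads in shared stretches are uncertain. Of the 7, 5 have another gene over an exon. Ackr1, on the same strand as Cadm3, was at 0.575, 1.09 and 1.25 CPM in Touchdome, at 0 in IFE and at 0.229, 0 and 0 CPM in HF, so it was higher in the same group as Cadm3 at a lower level. The antisense genes over Dscaml1, Ildr2, Map2 and Pkd1l2 (4833428L15Rik, 5330438I03Rik, Gm10558 and Gm15395) were at 0 or at no more than 0.192 CPM in any library. Aim2, beside Cadm3 on the other strand without a shared exon, had means of 2.79, 2.00 and 1.71 CPM in Touchdome, IFE and HF. Ctnna2, which holds Lrrtm1 in an intron on the other strand, was at 0.179 CPM in Touchdome replicate 2 and 0 elsewhere. Expected counts were exact whole numbers in all 9 libraries for 5 of the 7 genes, and those of Cadm3 and Ildr2 were not, as happens where reads are divided with other genes.

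The 6 genes whose levels over the 9 libraries were most like the mean profile of the 7, by Pearson correlation of log2 CPM, were Elk3 (r = 0.960), Kcne4 (0.959), Klk13 (0.957), Slc35f1 (0.957), Plppr4 (0.955) and Meg3 (0.952). The 9 points share group membership and sequencing depth, so r describes these libraries only. Kcne4 was at 14.1 ± 4.27 CPM in Touchdome, 0.0126 ± 0.0219 in IFE and 0.242 ± 0.309 in HF, and like Nptx1 it was highest in Touchdome replicate 2. Elk3 had means of 10.1, 3.84 and 5.32 CPM in Touchdome, IFE and HF. Plppr4, a membrane protein of excitatory synapses, had 1.81, 0.108 and 0.264 CPM, and Slc35f1 had 3.79, 0.431 and 0.638 CPM.

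Markers of nerve cells were low in all 3 groups. The 13 neuron markers summed to 3.58 to 7.19 TPM in Touchdome libraries, 4.51 to 7.18 in those of IFE and 3.91 to 5.12 in those of HF, and 10 of them were above 0 in any library, 8 in Touchdome, 6 in IFE and 7 in HF. Elavl4, Nefl and Scn9a were at 0 in all 9 libraries, and Rbfox3 and Calca were also at 0 in Touchdome. Syt1, a synaptic vesicle protein, had 5.91 ± 1.54 CPM in Touchdome beside 6.50 ± 2.42 in IFE and 0.791 ± 0.658 in HF. It was higher in Touchdome than in HF by 2.76 ± 0.56 on the log2 scale (adjusted p = 0.00289, edgeR) but missed the threshold against IFE (adjusted p = 0.970, edgeR). The summed levels of the list overlapped between the 3 groups.

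Merkel cell markers summed to 10.1, 2.04 and 1.99 TPM in Touchdome, against 0.340 to 0.550 for IFE and 3.31 to 4.65 for HF, with Atoh1, Sox2, Rab3c and Chga at 0 in all 9 libraries. Of the 2 that passed the filter, Krt8 was higher in Touchdome than in IFE by 5.37 ± 1.04 on the log2 scale (adjusted p = 0.0225, edgeR). Piezo2 differed by 6.09 ± 1.46 and did not pass (adjusted p = 0.0853, edgeR). Neither passed against HF. Schwann cell markers summed to 82.9 to 90.8 TPM in Touchdome, against 63.5 to 90.7 for IFE and 52.7 to 62.6 for HF. The sum of the fibroblast markers was highest in Touchdome, above every library of the other groups. It was at 32.4 to 42.5 TPM for Touchdome, 0.210 to 1.61 for IFE and 20.4 to 31.5 for HF, with Lum at 0 in Touchdome and HF. Of the 5 tested genes of the list, Dcn alone was called higher in Touchdome than in HF. Dcn, which encodes the matrix protein decorin, had the pattern of the 7 genes, at 23.8, 25.3 and 16.4 CPM in Touchdome and no more than 0.316 CPM elsewhere, and rose by 7.44 ± 0.61 against IFE (adjusted p = 8.84e-05, edgeR) and 9.54 ± 0.76 against HF (adjusted p = 2.58e-06, edgeR) on the log2 scale. Col1a2, a collagen gene, was higher than in IFE by 5.66 ± 0.44 (adjusted p = 0.000182, edgeR) with a difference of -1.83 ± 0.30 from HF (adjusted p = 0.00126, edgeR). Col3a1 was at 2.49, 1.43 and 19.7 CPM in Touchdome and did not pass against either group, nor did Pdgfra and Col1a1. Endothelial markers had low sums, at 0.860 to 1.72, 0.330 to 0.380 and 0 to 0.440 TPM, and were also highest in Touchdome. Pecam1, the only tested gene of that list, did not pass against IFE (adjusted p = 0.804, edgeR) or HF (adjusted p = 0.138, edgeR). Melanocyte markers were at 39.5 TPM in Touchdome replicate 3 and 8.76 to 9.21 in the other 2, beside 4.44 to 7.50 in IFE and 57.7 to 71.1 in HF. The list did not move as a whole. Of its 4 tested genes, Mitf had a log2 difference of -2.69 from HF (adjusted p = 0.000335, edgeR). Dct, Pmel and Tyrp1 did not pass against HF (adjusted p from 0.753 to 0.910, edgeR), and none of the 4 passed against IFE. Langerhans and T cell markers summed to 12.6 to 15.2 TPM for Touchdome, 8.67 to 10.8 for IFE and 2.83 to 32.8 for HF. The part of these cells in the levels of the 7 genes was not tested.

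**Figure D5:**
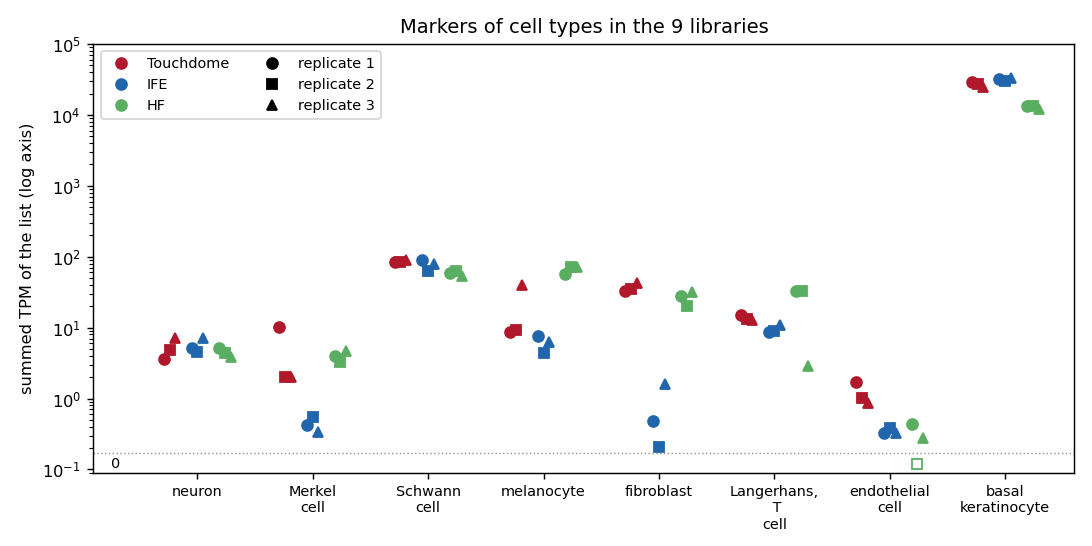
Summed TPM of 8 marker lists (vertical log axis) in each library, with an open point for a sum of 0. Over the 9 libraries, neuron markers lie between 3.58 and 7.19 TPM and basal keratinocyte markers between 12153 and 33469 TPM. Fibroblast markers are high in Touchdome and HF and low in IFE.

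Across the series, total counts ran from 9295059 to 28249763 per library. Among the sort genes, Tnc was at 257 ± 48.9 CPM in Touchdome, 4.79 ± 3.22 in IFE and 50.5 ± 8.71 in HF. HF exceeded IFE in Tnc by 3.33 ± 0.50 on the log2 scale (adjusted p = 0.00137, edgeR), although both were sorted as TOMATO-negative. Ly6a, which encodes SCA1, followed the labels, at 125 ± 18.8, 153 ± 36.1 and 1.08 ± 0.753 CPM in the same order. Itga6 and Epcam were above 100 CPM in every library.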

How the data were processed

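Poly(A) RNA was sequenced in 9 libraries, 3 for each sorted population. Per the submitters' processing notes, the build was mm39 and the tools included RSEM 1.3.3, STAR 2.7.9a and DESeq2 1.38.2. Not given in the sources used here is the part each tool played, the annotation or the handling of strand. Values of 2 kinds were deposited by the authors. Expected counts, as deposited, estimate the reads of each gene without scaling between libraries, and the TPM values deposited by the authors are scaled by length and keep no depth. Between 92.5% and 94.6% of a library's expected counts, rows at 0 included, were exact whole numbers.

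Symbols came from GENCODE vM21, on another build, for 52081 of 55357 identifiers, and Kirrel1 was matched by an older symbol. Identifiers without a symbol held 0.673% to 2.13% of counts. Expected counts were rounded and filtered with filterByExpr of edgeR 4.0.16 (minimum count 10, minimum total 15), scaled by TMM and fitted with the robust quasi-likelihood test in R 4.3.3, with 9 libraries in 1 fit and Benjamini-Hochberg adjustment over 15046 genes at 0.05. DESeq2 1.42.0 and limma 3.58.1 were alternatives, with other filters, scalings, pseudocounts (1 and 0.1), a fit of 2 groups, a replicate block and each library left out. Where a group is at 0, the fold is a bound against 3 counts over that group, and intervals and limits cover counting error only.

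Named genes were the 7 members, their paralogs, overlapping genes, the sort genes, per family and comparison up to 3 called genes with the smallest p or else the most abundant, and the 6 genes most like the mean profile. The family and marker lists and the members were chosen with earlier results of these data known. Nrcam and Alcam in the blocked fit and single markers were named after their values were seen. Same-numbered Touchdome and IFE libraries had correlations of 0.146, 0.173 and 0.203 over genes in their deviations from the group means. Differently numbered ones had -0.128 to -0.0406. Since deviations from a mean of 3 libraries sum to 0, positive values for same-numbered libraries go with negative values for the others. The labels do not say what a number shares, so pairing is not established, and the reported fit has no replicate block. For same-numbered libraries of Touchdome and HF the correlations were 0.0701, -0.0257 and 0.0327, and for HF and IFE 0.0592, -0.00828 and 0.0541. Libraries of a group differed by more than sampling noise in every pair (chi-square per degree of freedom 16.8 to 73.6).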

Additional observations from a re-analysis of the deposited data

How the results depend on the processing

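No called result changed sign in an alternative, of which there were 17 per result and 15 or 16 for Lrrtm1 and for Ildr2 between HF and IFE, where a stricter filter or a fit of only those groups removed the gene. The uncalled differences of Lsr and Pkd1 from IFE, -0.14 and 0.18, did, reaching 0.00398 with limma on log2(TPM + 0.1) and -0.060 without IFE replicate 2. The 236 alternative values of the Touchdome differences of the 7 genes were all above 0. That sign follows from the choice of the genes on these same libraries and is no support. Of these values, 26 differed from the reported value by over 1 SD. Counts that moved by over 1.5 times follow, and the cause was not tested. The others stayed within that, Touchdome against HF running from 1257 to 2126 higher (1773 reported) and 1324 to 2220 lower (1930 reported). Genes higher in Touchdome than IFE numbered 184, and 446 with DESeq2, 100 with limma on log2(TPM + 1), 100 with only the 2 groups, 282 with the replicate block and 105 to 216 with 1 library left out, lowest without IFE replicate 1. Genes lower numbered 12, and 84 with DESeq2, 49 without a filter, 0 with both limma fits on TPM, 5 with only the 2 groups, 67 with the replicate block and 4 to 29 with 1 library left out. Leaving out Touchdome replicate 1, HF replicate 3 or any of the IFE libraries moved that count by over 1.5 times. Genes lower in HF than IFE numbered 2401, and 1209 and 1219 with limma on log2(TPM + 1) and log2(TPM + 0.1). Family genes higher in Touchdome than IFE numbered 3, and 6 with DESeq2, 0 with limma on log2(TPM + 1), 5 with the replicate block and 1 to 3 with 1 library left out, 1 without each of the IFE libraries. Members higher in HF than IFE numbered 3, and 1 with limma on log2(TPM + 1). Leaving out 1 library kept that count at 3. The replicate block changed no call of the 7 genes between HF and IFE. Depth limits Lrrtm1, Ildr2 and Dscaml1 in IFE, where 0 counts over the group allow 0.0503 CPM.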
